A study of Mus musculus with 5 samples.

Results

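The sites described here are stretches of the genome at which p300 and c-Jun were both listed in MS5 cells, with and without pioglitazone. MS5 is an established mouse bone marrow stromal line. All cells of the series, at passage 11, were given TGF-β1 at 10 ng/mL for 5 h, so every library used here comes from stimulated cells. One p300 and one c-Jun library came from cells that received no pioglitazone, and one of each from cells given pioglitazone at 20 ng/mL along with the cytokine. The peaks of the 4 lists were merged into sites wherever they overlapped by at least 1 bp, and a site was kept when it held a peak from each list. This rule left 5762 of 44718 merged sites, or 12.9% (exact 95% interval 12.6 to 13.2). The sites were thus chosen by the deposited peak calls, and their number and their place in the lists are descriptions and were not tested.

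p300 is an acetyltransferase that is brought to enhancers and promoters by transcription factors and acetylates histones there. c-Jun pairs with Fos-family or other Jun-family proteins to form AP-1, a factor induced by growth signals and cytokines that binds together with the Smad proteins at many TGF-β target genes and recruits p300. Pioglitazone is a ligand of PPARγ, a nuclear receptor that drives adipocyte differentiation and can counteract AP-1 and other inflammatory factors. The series title places the comparison in the resolution of myelofibrosis, the scarring of the bone marrow, in which stromal cells lay down matrix under TGF-β.

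Nothing below has a replicate check, since a single library stands for each antibody and treatment, and intervals cover counting error only. The lists give no peak height: the deposited score is 1 throughout. The row at which a peak stands was therefore used as its place in the list, written in percent of the list's length with the first row lowest. No source used here says by what the rows were sorted. For p300 there were 31466 listed peaks without pioglitazone and 21994 with it, for c-Jun 17044 and 13325, and sequencing depth is unknown. Sites are named by position in mm9, counted from 1, because no gene annotation or sequence of that build was used here. For the same reason no sequence is shown, and neither promoters nor AP-1 motifs were examined.

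Every one of the 5762 sites held exactly 4 peaks, 1 from each list. The sites were 249 to 774 bp wide, with a median of 322 bp. At 5390 of them, 93.5% (92.9 to 94.2), some stretch was covered by all 4 peaks, and the other 372 were held together by a chain of overlaps. The weakest overlap in the chain had a median of 191 bp. It was 10 bp or less at 34 sites, which stood just inside the rule. Just outside it were 19 of the 5809 sites listed in 3 of the 4 lists, where a peak of the missing list ended no more than 10 bp away. Within 500 bp the missing list had a peak at 432 of those 5809 sites.

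The sites made up different shares of each list, and stood early in all of them. They took in 18.3% (17.9 to 18.7) of p300 peaks without pioglitazone and 26.2% (25.6 to 26.8) with it. Of c-Jun peaks they took in 33.8% (33.1 to 34.5) without and 43.2% (42.4 to 44.1) with pioglitazone. Every list gave the same number of peaks to the sites, so these shares differ only because the lists differ in length. They do not measure a difference between factors or treatments at the sites. The median site stood at 16.2% of the p300 list without pioglitazone and 24.4% of the one with it, and at 27.1% and 33.3% of the c-Jun lists. Sites with p300 in both treatments and no c-Jun, 6001 in all, stood later, at medians of 43.7% and 53.5% of the p300 lists. The 3216 sites with p300 in both treatments and c-Jun only without pioglitazone lay between these sets, at 29.2% and 42.1%. Their c-Jun peaks stood at a median of 51.5%. A later place was not particular to sites without c-Jun. Sites with c-Jun in both treatments and no p300 stood at medians of 44% and 42.6% of the c-Jun lists. Sites found in 1 list only stood latest, at medians of 71.6% to 75.2%. Positions in percent from lists of unequal length do not measure a change in binding: with every list shortened to the length of the shortest, the medians of the sites were 24.5%, 26.5%, 25.4% and 25.8%, and 4160 sites were in all 4.

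Among p300 peaks the share lying in these sites fell with list position. Without pioglitazone 253 of the 314 p300 peaks in the first 1% of rows, 80.6% (75.8 to 84.8), were in sites of all 4 lists, and in the last 10% of that list 1.56% (1.15 to 2.05) were. With pioglitazone the shares were 75.3% (69.1 to 80.9) and 8.18% (7.07 to 9.41). The first p300 peaks listed thus lay mainly where c-Jun was listed too.

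The c-Jun lists began differently. Without pioglitazone 62 of the 170 c-Jun peaks in the first 1% of rows, 36.5% (29.2 to 44.2), were in sites of all 4 lists. Between 1% and 2% of that list the share was 67.6% (60.1 to 74.6), and between 2% and 5% it was 81.1% (77.4 to 84.4). With pioglitazone it was 39.8% (31.5 to 48.7) in the first 1%, 35.3% (27.3 to 44.1) between 1% and 2%, and 79.8% (75.5 to 83.6) between 2% and 5%. For 34.7% of these earliest c-Jun peaks without pioglitazone, and for 32.3% with it, the merged site held no p300 peak of either treatment. The corresponding share of p300 peaks whose site held no c-Jun was 7.32% and 8.68%. The earliest c-Jun row in a site of all 4 lists was row 9 without and row 8 with pioglitazone, and the earliest p300 rows were 4 and 3.

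**Figure D1:**
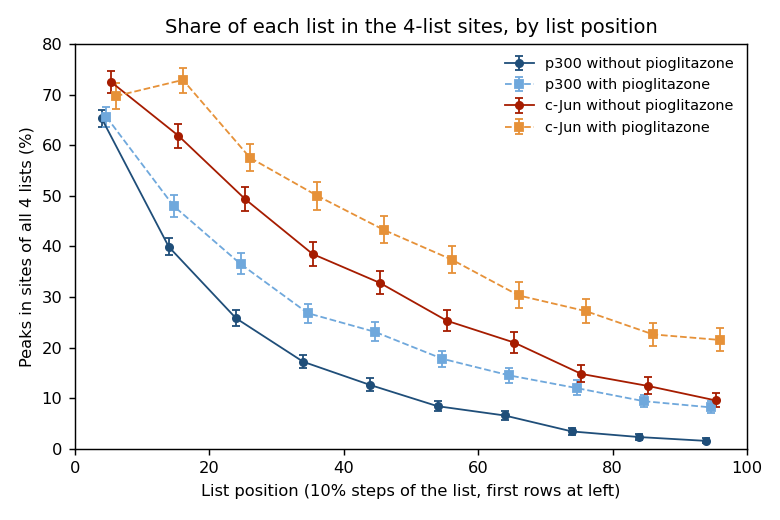
Share of the peaks of each list that lay in sites of all 4 lists (vertical axis, percent) in each 10% step of the list (horizontal axis, first rows at left); points are the 4 libraries, shifted slightly sideways, and bars are exact 95% intervals for counting error. The p300 shares fall from 65.3% and 65.6% in the first step to 1.56% and 8.18% in the last, while c-Jun with pioglitazone has 69.7% in the first step and 72.9% in the second.

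Sites early in every list formed a core of 406, which stood in the first 10% of all 4 lists. In the first 25% of all 4 lists were 1373 sites, and in the first 50% were 2942. At the other end, 224 sites stood after the first 50% in all 4 lists.

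The site with the earliest mean position lay on chr15:101200805-101201108. It was p300 row 20 without and row 49 with pioglitazone, and c-Jun row 214 without and row 220 with it. The next was on chr19:36203719-36204024, at p300 rows 85 and 65 and c-Jun rows 187 and 240. On chr10:76111493-76111781, the p300 rows were 74 and 92 and the c-Jun rows 211 and 243. All 3 sites stood in the first 2% of every list, and within each the 4 centres spanned 51 to 58 bp.

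The site on chr1:71934487-71934762 had p300 rows 12 and 28 and c-Jun rows 265 and 274. That on chr2:168284145-168284453 had p300 rows 39 and 89 and c-Jun rows 226 and 264. A site on chr17:68338286-68338597 followed, with p300 rows 93 and 63 and c-Jun rows 209 and 285. At these sites p300 stood earlier in its list than c-Jun did in its own in both treatments, in percent of the list. In the mean of the treatments this held for all 10 of the earliest sites. The p300 lists are longer, which makes the same row a smaller percent. By rank counted among the sites alone, in percent, chr6:143314454-143314721 was the exception. Its p300 rank was 0.85% without and 5% with pioglitazone, and its c-Jun rank was 0.955% and 1.04%.

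On chr6:143314454-143314721, p300 stood at row 64 without and row 376 with pioglitazone, and c-Jun at rows 137 and 165. It was the one site of the 10 whose p300 place moved beyond the first 1% of the list, from 0.203% to 1.71%. The remaining sites of the 10 were on chr17:14747947-14748208, chr17:14953025-14953330 and chr6:91157560-91157822. The second of these had the earliest p300 rows of the 10, row 6 without and row 16 with pioglitazone.

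The sites last in line stood near the end of every list. On chr2:80016173-80016527, the 4 positions lay between 86.4% and 97.1%. A site on chrX:160707354-160707622 had the last p300 row of any of the sites with pioglitazone, row 21988 of 21994. Its c-Jun row was 13313 of 13325 with pioglitazone, and its rows without were 26401 for p300 and 16034 for c-Jun. The other 3 latest sites were on chr17:72144979-72145574, chr9:99124807-99125349 and chrX:45329658-45330027.

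The next question was how closely the 2 factors were placed. Without pioglitazone the centres of the p300 and c-Jun peaks lay a median of 36 bp apart (lower and upper quartiles 16 and 68 bp), and with pioglitazone 46 bp (21 and 85 bp). They were within 50 bp of each other at 63.9% (62.6 to 65.1) of sites without and 53.8% (52.5 to 55.1) with pioglitazone. The signed offset had a median of -1 bp and -2 bp, so over all sites neither factor lay to one side on the chromosome. The same factor in the 2 treatments gave like distances, with medians of 34 bp for p300 and 43 bp for c-Jun. The distance between different factors in one treatment was thus about as large as that between libraries of one factor. Across treatments, the median was 39 bp between p300 without and c-Jun with pioglitazone. It was 43 bp between p300 with and c-Jun without pioglitazone. All 4 centres fell within 50 bp at 1281 sites (22.2%) and spread over more than 200 bp at 584 (10.1%). The rule and the fixed peak widths of 227 to 249 bp cap these distances, and requiring all 4 centres to lie within 100 bp would leave 3558 sites.

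**Figure D2:**
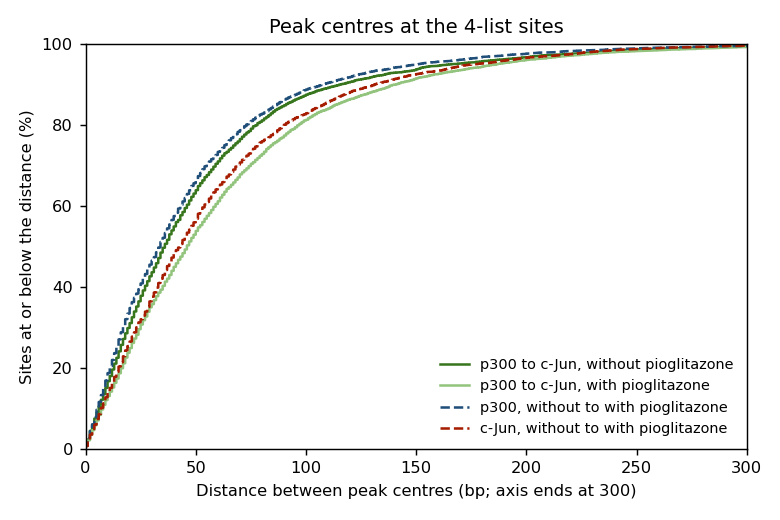
Cumulative share of the 5762 sites (vertical axis, percent) against the distance between peak centres in bp (horizontal axis, ended at 300 bp; the largest distances are 435 to 504 bp). Solid lines compare p300 with c-Jun in 1 treatment and dashed lines 1 factor between treatments; the p300 line between treatments reaches 66.5% at 50 bp and the p300 to c-Jun line with pioglitazone 53.8%.

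Which side c-Jun lay on was repeated only weakly between treatments, a comparison in which the libraries are all different. Of 5673 sites with an offset in both treatments, c-Jun lay on the same side of p300 in 53.1% (51.8 to 54.5). Among the 191 sites where the centres were at least 200 bp apart without pioglitazone, the side was the same in 63.9% (56.6 to 70.7). At those sites the median offset was 242 bp without pioglitazone and 53 bp in the same direction with it. The sites were picked for a large offset without pioglitazone, so a smaller one in the other libraries is built into the choice. Sites picked by their offset with pioglitazone were not examined, and no change with treatment can be read from these values.

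Centres lay closer at sites early in the lists. Sites were ranked by the mean of their ranks in the 4 lists, each rank counted among the 5762 sites alone. In the earliest 10% the median p300 to c-Jun distance was 26 bp without and 34 bp with pioglitazone. In the last 10% it was 48 and 59 bp. The p300 centres of the 2 treatments were 21 bp apart in the earliest and 55 bp in the last 10% of sites.

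**Figure D3:**
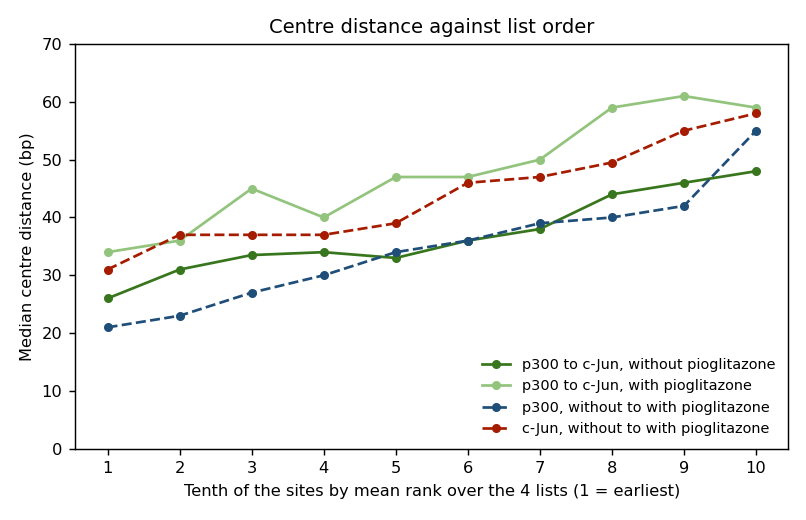
Median distance between peak centres in bp (vertical axis) for the sites divided into 10 equal parts by mean rank over the 4 lists (horizontal axis, earliest at left; 576 or 577 sites each); lines as labelled, without error bars. The p300 line between treatments goes from 21 bp to 55 bp and the c-Jun line from 31 bp to 58 bp.

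The place of p300 was then set against that at sites without c-Jun, using only sites whose p300 peaks of both treatments overlapped each other. The p300 centres lay within 50 bp at 67.5% (66.2 to 68.7) of 5682 sites of all 4 lists and at 56.4% (55.1 to 57.7) of the 6001 without c-Jun. That is 11.1 percentage points more (9.30 to 12.8). Within 10% steps of the p300 list without pioglitazone the difference was -0.0168 points (-1.97 to 1.94). Against the sites that had c-Jun only without pioglitazone the difference was 6.13 points (4.03 to 8.24), and 0.252 (-1.85 to 2.35) within the steps. For c-Jun centres, sites of all 4 lists exceeded the 774 sites with c-Jun in both treatments and no p300 by 4.29 points (0.497 to 8.10). At equal position in the c-Jun list without pioglitazone this was 1.58 points (-2.01 to 5.17). No difference in placement was therefore found at equal list position, where the intervals allow up to 2.35 points for p300 and 5.17 for c-Jun.

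To see how stable the order of the sites was, ranks were taken among the 5762 sites in each list and written in percent, which makes the lists equally long. Across sites, the ranks of p300 with and without pioglitazone had a Spearman's rho of 0.855, and those of c-Jun 0.721. Between the factors rho was 0.528 without and 0.452 with pioglitazone. These are descriptions over sites that share libraries and are not replicates. Runs of rows in order of position occur in all the lists, and their part in these values was not tested. The rank differed between treatments by no more than 32.3 percentage points at 95% of sites for p300 and by no more than 44.9 for c-Jun. It differed by 10 points or less at 54.8% of sites for p300 and at 42.6% for c-Jun. Differences of 50 points or more were seen at 15 sites for p300 and 167 for c-Jun. Without replicate libraries the part of this that any 2 libraries would show is unknown. The rank differences of the 2 factors hardly went together (rho 0.0572), and their directions were opposite at 2778 sites, 48.2%.

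A balance between the factors was visible in both treatments. The p300 rank minus the c-Jun rank of a site, taken from 2 libraries without pioglitazone, had a rho of 0.557 with the same quantity from the 2 libraries with it. This value is built from the same ranks as the rho values above and is not independent of them. p300 stood at least 25 points earlier than c-Jun at 956 sites without pioglitazone, and at 508 of these also with it, 53.1% (49.9 to 56.3). Over all sites, p300 had such a lead with pioglitazone at 19.7%. c-Jun stood at least 25 points earlier at 912 sites without pioglitazone, and at 491 of these also with it, 53.8% (50.5 to 57.1), against 19.1% of all sites. The lead passed to the other factor by as much at 29 and 23 sites.

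The extremes were lopsided. c-Jun led by 75 points or more in both treatments at 41 sites, and p300 led by as much in both at 5. The 41 sites had a median place of 0.88% and 1.03% in the c-Jun lists and of 65.3% and 69.7% in the p300 lists. Most of them are thus among the earliest rows of the c-Jun lists, with p300 listed late.

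**Figure D4:**
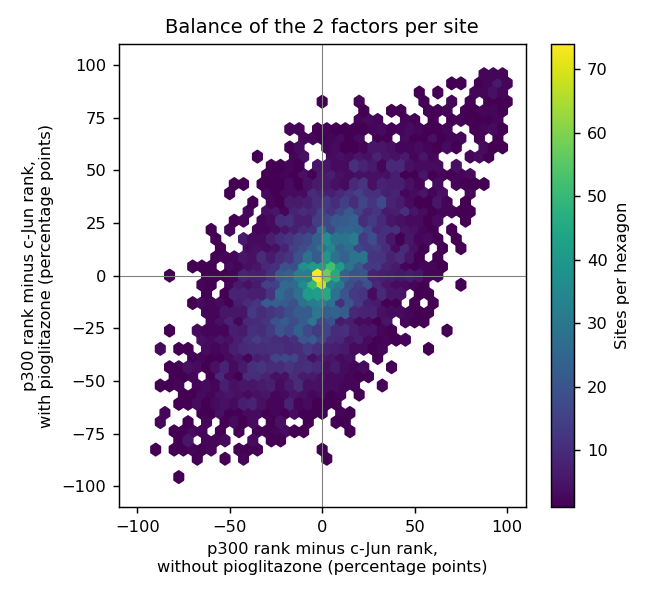
p300 rank minus c-Jun rank of each of the 5762 sites in percentage points, without (horizontal axis) and with pioglitazone (vertical axis); colour gives the number of sites per hexagon, and negative values mean that p300 stood earlier. The sites stretch along the diagonal (rho 0.557), and the patch near the upper right corner holds sites where c-Jun led by 75 points or more.

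Sites with the widest gap in list position illustrate both ends. On chrX:148803289-148803613, c-Jun stood at row 510 without and row 215 with pioglitazone, while p300 stood at row 31213 of 31466 and row 19845 of 21994. On chr4:83132334-83132612, c-Jun was at row 57 in both lists and p300 at rows 29802 and 17832. The remaining 3 were on chr5:23122369-23122656, chrX:45338451-45338839 and chr4:132685977-132686264. c-Jun stood in the first 15% and p300 after the first 70% of its list at all 5 sites.

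In the opposite direction, the site on chr1:82037879-82038178 had p300 rows 492 and 905 and c-Jun rows 14516 of 17044 and 11931 of 13325. On chr16:25100984-25101408, the p300 rows were 2304 and 1140 and the c-Jun rows 16813 and 11098. The other 3 were on chr2:117460715-117461083, chr2:48375448-48375710 and chr16:84662139-84662464. At these 5 sites p300 stood in the first 8% of its lists in both treatments and c-Jun after the first 75%.

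The places of single sites in the lists with and without pioglitazone are given next as percent of each list, and, since the p300 lists differ in length, also as the difference in rank among the 5762 sites. By rank, the widest differences for p300 were on chr16:38695062-38695507, which went from 23.0% to 89.9% of the sites with c-Jun at 26.1% and 24.9%, and on chr4:33334518-33334917, from 87.2% to 29.8% with c-Jun at 87.8% in both. These 2 sites were picked by rank after the values had been seen; those that follow were picked by percent of the list. The p300 peak on chr2:126501027-126501339 was at row 30212 of 31466 without pioglitazone (96.0%) and row 5451 of 21994 with it (24.8%). Its c-Jun place was 76.1% and 58.3%, and its p300 rank differed by -49.3 points. Other sites whose p300 place was earlier with pioglitazone were on chr13:59924087-59924517, chr13:63532778-63533057, chr8:28134220-28134725 and chr14:62950931-62951221. The p300 rank differences of these 5 sites ran from -54.8 to -38.2 points. c-Jun was also earlier in its list at 4 of the 5, by 2.47 to 17.8 percentage points of the list, and later by 7.47 on chr8:28134220-28134725. By rank among the sites, the c-Jun difference on chr8:28134220-28134725 was -0.92 points, so its direction depended on the measure.

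On chr13:24628716-24628997 p300 stood at row 5518 (17.5% of the list) without and row 21349 (97.1%) with pioglitazone, and c-Jun at 24.3% and 29.0%. By rank among the sites the p300 difference there was 46.7 points. On chr7:53576576-53577052, both factors stood later in the list with pioglitazone, p300 at 23.7% and 99.6% and c-Jun at 20.7% and 92.6%. The others were on chr14:28334401-28334737, chr14:100023994-100024285 and chr11:48712607-48712962. The p300 rank differences of these 5 sites, 36.8 to 46.7 points, were smaller than the widest by rank, 66.9 points.

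For c-Jun the site on chr3:21598539-21598808 went from row 14955 of 17044 (87.7%) to row 1273 of 13325 (9.55%), with p300 at 3.50% and 6.46%. The p300 peaks there were early in both lists, and the 4 centres lay within 23 bp. c-Jun was likewise earlier with pioglitazone on chr13:16733435-16733963, chr13:32311847-32312209, chr9:41758604-41758921 and chr3:144861071-144861353.

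c-Jun was later with pioglitazone on chr16:86243269-86243631, going from 11.5% to 91.4%, while p300 stood at 7.11% and 3.46%. The site on chr13:37390769-37391078 went from c-Jun row 1580 (9.27%) to row 13044 (97.9%), with p300 at 33.4% and 69.9%. The c-Jun rank differences ran from -81.1 to -59.7 points at the 5 sites where c-Jun was earlier and from 61.1 to 79.1 at the 5 where it was later. The remaining 3 with c-Jun later were on chr19:23068410-23068763, chr3:119878625-119878906 and chr1:101213784-101214094. These 20 sites were picked for the size of their difference, and no test bears on any of them.

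Most sites had no other site of all 4 lists nearby. Another site of all 4 lists lay within 5 kb, centre to centre, at 5.02% (4.47 to 5.61) of sites and within 25 kb at 30.5% (29.4 to 31.8). Among the 6001 sites with p300 in both treatments and no c-Jun, a set of nearly equal size, the shares with a neighbour of their own kind were 6.5% (5.89 to 7.15) and 30.8% (29.6 to 32). The difference was -1.48 points (-2.34 to -0.63) within 5 kb and -0.233 (-1.91 to 1.45) within 25 kb. Sites were joined into groups at a distance between these 2 (its value stands with the processing). Within this joining distance another site of all 4 lists lay at 1034 sites, 17.9% (17 to 19), and the median distance to the nearest was 57.1 kb. The sites with p300 and no c-Jun had 18.1% (17.2 to 19.1) and 55.3 kb. The difference of -0.202 points (-1.6 to 1.2) was within counting error. Listed sites of any kind were common around them: within 25 kb, 85% of sites of all 4 lists and 85.6% of the sites with p300 and no c-Jun had one. Within 2 kb, 18% of sites of all 4 lists had any other listed site and 22.8% of the sites with p300 and no c-Jun, a difference of -4.82 points (-6.28 to -3.35). Peaks of one list were never closer than 324 to 363 bp, which limits what can be listed right beside a site occupied in all 4 lists; the part of this limit in the differences at 2 kb and 5 kb was not tested.

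Joining gave 5215 groups, of which 4728 were single sites, 437 held 2 and 42 held 3. The 2 largest held 5 each. One group on chr13:52051436-52071643 covered 20.2 kb. Its sites ranged from p300 row 283 without pioglitazone (chr13:52071252-52071643) to row 7608 (chr13:52051436-52051701). In c-Jun the earliest of the 5 was another, at chr13:52064068-52064547, with row 983 without and row 877 with pioglitazone. The order within the group thus differed between the factors.

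The other on chr15:66693396-66725887 covered 32.5 kb, and its p300 peaks without pioglitazone stood close together, at 8.19% to 17.1% of the list. Its c-Jun peaks without pioglitazone lay between 22.7% and 87.0%. A further 6 groups held 4 sites each. The group on chr6:31032050-31058257 was early throughout, with every p300 peak in the first 1.51% and every c-Jun peak in the first 6.50% of its list. That on chr8:124691437-124710582 held a site at p300 rows 9 and 26 and 3 others with p300 at 4.61% to 16.3%. The rest were on chr18:63560477-63577820, chr2:126128884-126148703, chr7:54269984-54296176 and chr8:129356539-129373723.

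By chromosome, the share of merged sites that were in all 4 lists went from 8.24% (6.64 to 10.1) on X, where 86 of 1044 were, to 15.8% (14.3 to 17.4) on chromosome 13, where 344 of 2180 were. The difference of X from the other chromosomes was -4.76 points (-6.39 to -2.90). Among sites with a p300 peak without pioglitazone, compared within 10% steps of that list, the X difference turned to 1.22 points (-0.815 to 3.24). Chromosome 13 lay 3.04 points above the others (1.5 to 4.67) and 3.46 (1.80 to 5.12) within the steps. In all, the difference within the steps among these sites had the opposite sign on 9 of 20 chromosomes: 4, 6, 10, 11, 12, 14, 17, 19 and X. The comparison within steps also left out the merged sites without such a p300 peak. The part of list position and the part of leaving out sites in these sign changes cannot be told apart here. List position is itself not free of chromosome, since runs of rows are grouped by chromosome. The effect of this on the differences within the steps was not tested. On 4 of the 9 chromosomes the interval within the steps left out 0. There the difference went from -2.49 to 1.75 (0.0916 to 3.41) on chromosome 4, from 1.1 to -2.2 (-3.89 to -0.512) on 6, from 2.03 to -2.32 (-3.87 to -0.777) on 10 and from 0.916 to -3.17 (-5.4 to -0.952) on 19. The intervals are not adjusted for the number of chromosomes. The 3 merged sites on Y held none.

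**Figure D5:**
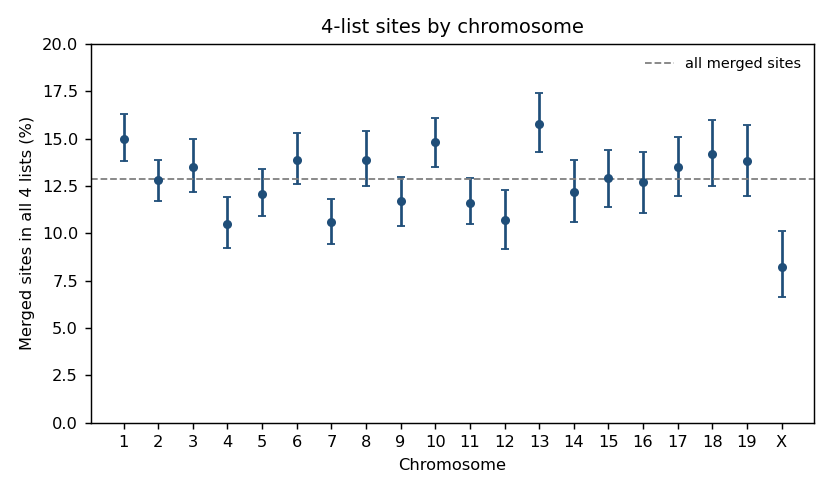
Share of the merged sites on each chromosome that were in all 4 lists (vertical axis, percent), with exact 95% intervals for counting error; the dashed line is the share over all merged sites, 12.9%, and Y with 3 sites is left out. X is lowest at 8.24% and chromosome 13 highest at 15.8%; the values are not adjusted for list position.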

How the data were processed

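The authors deposited 1 peak list for each of 4 ChIP-seq libraries of MS5 cells; the fifth sample of the series is a pooled input, not analysed here. Per the submitters' processing notes, Bowtie2 (2.3.4.3), SAMtools (1.9) and HOMER were used with the build mm9; no source used here gives their roles or settings or the use of the input. The deposited score is 1 for every peak. Other columns deposited are chromosome, start, end, peak name and strand. On chromosome 7, 18 of the 279 sites stood past the end of the last GRCm38 gene at hand, so that table was not joined to the positions.

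Sites were merged in Python (3.11.15; numpy 2.4.6, pandas 2.3.3, scipy 1.17.1, matplotlib 3.10.9) and the counts were the same in bedtools (2.31.1). The functions were tested on simulated lists with planted sites. Shares have exact (Clopper-Pearson) 95% intervals, their differences combined intervals, and differences within 10% steps Mantel-Haenszel weighted ones. Sites were joined into groups where neighbouring centres lay within 12.5 kb, and one alternative asked for an overlap of at least 124 bp. There are no tests, as each group is 1 library.

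Named are the 10 sites earliest in the mean of the 4 positions, the 5 with the largest differences in each direction between treatments and between factors, the 5 latest, and the largest groups; ties were all named. A rule for sites with most peaks picked none, since all have 4. The members and lists were chosen with earlier results of these data known. The comparisons within steps, the ranks among the sites, the 2 sites named by rank and the finer steps at the start of each list were added after the data were seen.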

Additional observations from a re-analysis of the deposited data

Results flagged for a closer look

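Of the 20 sites named for a large difference in list position between treatments, 9 had rank differences of opposite sign for the 2 factors; this was not tested, since each group is 1 library. Over all sites this was common, at 48.2%. The c-Jun rank difference (with minus without pioglitazone) minus the p300 rank difference, in percentage points of rank among the 5762 sites, was negative at 6 of them. It was -87.1 on chr14:100023994-100024285, -84.0 and -67.9 on chr3:21598539-21598808 and chr3:144861071-144861353, and -70.7 and -48.1 on chr13:32311847-32312209 and chr13:24628716-24628997. On chr11:48712607-48712962 it was -52.2. At some of these 6 sites one factor differed little. The c-Jun rank differed by -1.35 points on chr13:24628716-24628997, where its percent of the list was later by 4.70. The p300 rank differed by 0.0694 points on chr3:144861071-144861353 and by 2.92 on chr3:21598539-21598808. At the other 3 of the 9 sites, c-Jun was later and p300 earlier by rank: 88.5 on chr16:86243269-86243631, 82.1 on chr1:101213784-101214094 and 79.7 on chr3:119878625-119878906.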

How the results depend on the processing

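Under 7 alternative choices that could change a value, and 2 further joining distances, 31 of 65 recomputed values stayed within counting error of the reported one (for the number of sites, within 1.5 times) and 34 moved. With an overlap of about 50% of a peak (its minimum in bp stands with the processing), 10.5% of merged sites were in all 4 lists, the p300 to c-Jun distance was 33 bp without and 41 bp with pioglitazone, the median positions were 14.7% and 22.6% (p300) and 24.7% and 31.5% (c-Jun), and 16.8% had another site within the joining distance. With all 4 centres within 100 bp there were 3558 sites (7.96%), with distances of 26 and 31 bp, positions of 12.6%, 20.0%, 21.9% and 27.5% in the same order, and 13.3% with a near site. Merging peaks up to 100 bp apart gave 13.6% of sites, and peaks all 200 bp wide 12.4%. With all lists shortened to the shortest, the share was 15.4%, the distances 34 and 42 bp, and the positions 24.5%, 26.5%, 25.4% and 25.8%, so that the order of the lists by median position seen at full length was lost. With the first 50% of each list there were 2942 sites (14%), with distances of 32 and 39 bp, a c-Jun position with pioglitazone of 35.3%, and 15.8% with a near site. Joining distances of 5 kb and 25 kb gave 5.02% and 30.5%. Shortening changed which rows could match. The larger overlap and the limit on the 4 centres shorten the centre distances by construction. A longer joining distance can only raise the share with a near site. The cause of the other shifts was not tested. The larger p300 to c-Jun distance with pioglitazone was seen under all 7 choices, which reuse the same 4 libraries and are no separate evidence. An eighth, exactly 1 peak per list, could change no value because every site holds exactly 4 peaks. Leaving out X and Y moved none beyond counting error. The alternatives for AP-1 motifs and promoters were not run, as no mm9 sequence or annotation was used. No paired analysis was possible because each group has 1 library. Depth and peak height are unknown, so list length and order carry whatever depth and enrichment did.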

Other observations

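What stood beside the sites was also counted. Of the 3902 sites with any listed site within the joining distance, the nearest was a p300 peak listed only without pioglitazone at 831 (21.3%, against 25.7% of all merged sites), another site of all 4 lists at 647 (16.6% against 12.9%), and a site with p300 in both treatments and no c-Jun at 598 (15.3% against 13.4%). A site with c-Jun in both treatments and no p300 was nearest at 60 (1.54% against 1.73%). These are counts without a test.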
